A study of Homo sapiens with 12 samples.

Results

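Expression of 10 genes that control the step from G1 to S phase was examined in 2 lines of triple-negative breast cancer cells, the line MDA-MB-468 and the line MDA-MB-231, with and without knockout (KO) of SMARCA4, the gene of an ATPase of the SWI/SNF chromatin remodelling complex. The genes were taken by symbol: RB1, RBL1 and RBL2, which encode the pocket proteins, CDKN2A and CDKN2B, which encode CDK inhibitors, and CCND1, CCND3, CCNE1, CDK4 and CDK6, which encode G1 cyclins and their kinases. All 10 of the 10 symbols were found among the 11529 genes of the table. RNA was sequenced in 4 groups of 3 samples each: control MDA-MB-468 cells, SMARCA4 KO MDA-MB-468 cells, control MDA-MB-231 cells and SMARCA4 KO MDA-MB-231 cells. The KO cells were polyclonal pools made with a lentiviral CRISPR/Cas9 vector against SMARCA4 and selected with puromycin, not single clones. The controls were labelled wild type, and whether they carried a nontargeting vector was not stated for the sequenced samples. No drug treatment was given in the labels of these samples. Values are FPKM, fragments mapped to a gene scaled to its transcript length and to the library's total, computed here from the deposited log2(FPKM + 1).

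In G1, the retinoblastoma protein RB and its relatives p107 (RBL1) and p130 (RBL2) bind E2F transcription factors and hold back genes of DNA replication. D-type cyclins with CDK4 or CDK6, and then cyclin E with CDK2, phosphorylate the pocket proteins and release E2F, while the INK4 proteins p16INK4a (CDKN2A) and p15INK4b (CDKN2B) inhibit CDK4 and CDK6. CDKN2A also encodes p14ARF, which stabilises p53 by binding MDM2. In triple-negative breast cancer this pathway is often broken at a single step, and MDA-MB-468 is known for loss of RB1 and MDA-MB-231 for homozygous deletion of CDKN2A. DNA was not measured in these samples.

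SMARCA4 itself was measured first as the check of the labels. It stood at 96.9, 97.4 and 101 FPKM in control and at 39.7, 43.5 and 47.7 FPKM in KO MDA-MB-468 cells, a log2 FC of -1.16 (SE 0.08, limma, adjusted p = 0.0137). In MDA-MB-231 cells it stood at 67.5, 71.5 and 67.0 FPKM in control and at 21.0, 23.9 and 22.6 FPKM in KO cells, a log2 FC of -1.57 (SE 0.06, adjusted p = 0.00143). All KO samples were below all controls, but SMARCA4 mRNA was still present in every KO sample. The call in MDA-MB-468 cells was lost without control replicate 2 (adjusted p = 0.0696), control replicate 3 (adjusted p = 0.0565) or KO replicate 2 (adjusted p = 0.0748). A sample had 11293 to 11362 genes with a value above 0, and samples of a group correlated at 0.989 to 0.995 across genes. The depth is unknown, since only FPKM was used. Most markers went the way of the labelled lines: the FPKM of 12 epithelial markers, all 12 of them in the table, summed to 6407 to 6613 in control MDA-MB-468 and 872 to 1283 in control MDA-MB-231 cells, and that of 8 mesenchymal markers, of 10 listed, to 864 to 997 and 2508 to 2782. In KO cells the epithelial sum was 7325 to 8201 in MDA-MB-468 and 1275 to 1427 in MDA-MB-231, and the mesenchymal sum 803 to 957 and 2196 to 2424. Of the mesenchymal markers, SNAI2 and CDH11 were listed at 0 in all control MDA-MB-468 samples. CD44 went the other way and gave most of the mesenchymal sum there, at 827 to 961 FPKM in control MDA-MB-468 and 432 to 542 FPKM in control MDA-MB-231 cells (log2 FC 0.89, adjusted p = 8.13e-05). Of 4 receptor genes that define other breast cancer subtypes, ERBB2 alone was in the table, and of 9 leukocyte and endothelial markers 2 were, CD14 and CD68. Single markers moved with the KO. In KO MDA-MB-231 cells CDH1 (log2 FC 0.54, adjusted p = 0.0442) and CD14 (log2 FC 1.18, adjusted p = 0.0294) were called higher, both from means near 1 FPKM or below. The KO change differed between the lines for CAV1 (1.47, adjusted p = 0.0121), VIM (0.81, adjusted p = 0.0192), CDH1 (-0.76, adjusted p = 0.0137) and CD14 (-1.75, adjusted p = 0.0257). Whether these marker levels bear on the values below was not tested.

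The genes whose mRNA was absent or nearly so differed between the cell lines. RB1 was nearly silent in MDA-MB-468 cells and expressed in MDA-MB-231 cells, while CDKN2A and CDKN2B were abundant in MDA-MB-468 cells and listed at 0 in MDA-MB-231 cells. The plot of the 10 genes by sample shows that these patterns were the same in control and KO cells.

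**Figure D1:**
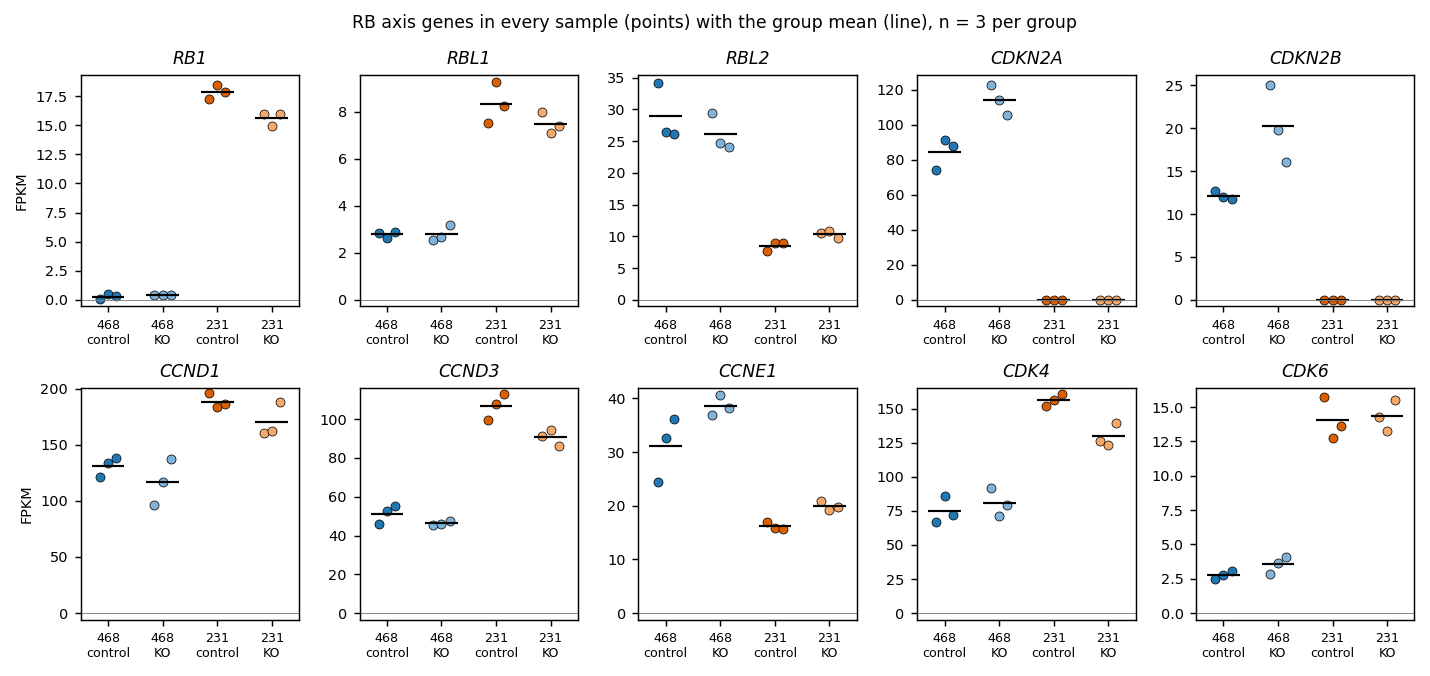
FPKM (vertical axis, from 0, a separate scale for each gene) of the 10 genes in every sample, by cell line and genotype on the horizontal axis, with points for the 3 samples of a group and a line for their mean. RB1 lies at or below 0.48 FPKM in every MDA-MB-468 sample, and CDKN2A and CDKN2B at 0 in every MDA-MB-231 sample.

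RB1 (chr13:48877880-49173572 of GRCh37, plus strand) encodes the main pocket protein. It stood at 0.05, 0.48 and 0.31 FPKM in control and at 0.42, 0.41 and 0.41 FPKM in KO MDA-MB-468 cells, against 17.2, 18.4 and 17.8 FPKM in control and 16.0, 14.9 and 16.0 FPKM in KO MDA-MB-231 cells. No sample of one line came near a sample of the other. The log2 FC of control MDA-MB-468 against control MDA-MB-231 cells was -3.89 (SE 0.12, adjusted p = 4.08e-08), and among KO samples it was -3.55 (SE 0.06). Values below 1 FPKM are compressed on the log2(FPKM + 1) scale, so that this log2 FC understates the ratio. RB1 passed the authors' filter on mean and SD of FPKM through MDA-MB-231 cells alone. It therefore had to differ between the lines, and neither comparison adds support.

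The other pocket proteins differed in opposite directions. RBL2, which encodes p130, the pocket protein of resting cells, was at 34.2, 26.4 and 26.1 FPKM in control MDA-MB-468 and at 7.69, 9.02 and 8.96 FPKM in control MDA-MB-231 cells, a log2 FC of 1.64 (SE 0.12, adjusted p = 4.96e-06). RBL1, which encodes p107 and is itself an E2F target, was at 2.84, 2.63 and 2.87 FPKM in control MDA-MB-468 and at 7.53, 9.24 and 8.24 FPKM in control MDA-MB-231 cells, a log2 FC of -1.30 (SE 0.09, adjusted p = 2.75e-06). The groups did not overlap for either gene. The summed FPKM of the 3 pocket protein genes was close in both lines, 31.9 ± 4.4 (SD, n = 3) in control MDA-MB-468 and 34.7 ± 2.1 (SD, n = 3) in control MDA-MB-231 cells, but its make-up differed. RBL2 gave 89.1% to 92.2% of this sum in control MDA-MB-468 cells and 23.7% to 25.6% in control MDA-MB-231 cells, where RB1 gave 50.2% to 53.1%. The RB1 share in MDA-MB-468 cells was 0.135% to 1.63% in control and 1.30% to 1.48% in KO samples.

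CDKN2A (chr9:21967751-21995300 of GRCh37, minus strand) was at 74.5, 91.6 and 88.0 FPKM in control and at 123, 114 and 106 FPKM in KO MDA-MB-468 cells. CDKN2B (chr9:22002902-22009304, minus strand), which starts 14.0 kb from it, was at 12.65, 11.97 and 11.78 FPKM in control and at 25.0, 19.8 and 16.1 FPKM in KO MDA-MB-468 cells. Both genes were listed at 0 FPKM in each of the 3 control and each of the 3 KO MDA-MB-231 samples, so that no fold is given. The limma test between the control groups gave an adjusted p of 8.08e-10 for CDKN2A and 1.95e-09 for CDKN2B. Both genes passed the authors' filter on mean and SD of FPKM through MDA-MB-468 cells alone, so they had to differ and the test adds no support. The MDA-MB-231 samples also have no spread, which lowers the SE. The CDKN2A value is for the gene as a whole and does not separate the mRNAs of p16INK4a and p14ARF. The antisense gene CDKN2B-AS1 (chr9:21994138-22128102 of GRCh37, plus strand) overlaps both genes. The library kit marks strand, but the strand setting of the counting was not stated, and CDKN2B-AS1 was not analysed here.

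The starts of these transcripts are shown because CDKN2A has separate promoters for its 2 proteins, whose mRNAs the values add together. The 150 bases before each start are given on the minus strand of GRCh38.p14 from RefSeq, at chr9:21995325-21995474 for p14ARF, chr9:21974858-21975007 for p16INK4a and chr9:22009306-22009455 for CDKN2B, and capitals mark GC boxes, the letters GGGCGG on either strand.
CDKN2A, p14ARF start: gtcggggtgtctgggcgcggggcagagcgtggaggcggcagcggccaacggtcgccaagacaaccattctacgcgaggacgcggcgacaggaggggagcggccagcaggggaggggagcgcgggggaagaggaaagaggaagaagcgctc
CDKN2A, p16INK4a start: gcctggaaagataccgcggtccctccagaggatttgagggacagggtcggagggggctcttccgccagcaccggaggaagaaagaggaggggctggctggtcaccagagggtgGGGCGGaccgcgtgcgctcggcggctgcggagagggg
CDKN2B: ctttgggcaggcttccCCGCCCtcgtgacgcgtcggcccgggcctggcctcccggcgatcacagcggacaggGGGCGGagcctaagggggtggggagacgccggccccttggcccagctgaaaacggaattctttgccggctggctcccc
The stretches held 0, 1 and 2 GC boxes, and 70.7%, 69.3% and 72% of their bases were G or C. Of all 35116 promoter windows of 300 bases in the RefSeq table, 45.0% held the box, so that its presence is common. These windows are longer than the stretches shown and reach 50 bases past the start. The share is therefore not one for stretches of 150 bases.

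The E2F letters TTTCGCGC or TTTGGCGC, searched on both strands, were present in 403 of the 35116 windows (1.15%). They were present in 17 of 52 windows of the list of E2F target genes described below and in 1 of 14 windows of the 10 genes, that of RBL1. Windows were matched for 9 of the 10 genes, without CCND1. The 150 bases before the RBL1 start (chr20:37095998-37096147 of GRCh38.p14, minus strand) are given with the E2F letters in capitals, which begin 26 and 16 bases before the start.
RBL1: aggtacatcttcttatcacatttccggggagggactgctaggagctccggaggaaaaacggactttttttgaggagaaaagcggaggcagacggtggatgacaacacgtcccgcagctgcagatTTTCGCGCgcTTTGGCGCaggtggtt
A match describes the letters only, and no binding was measured.

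Genes next to CDKN2A were at 0 in MDA-MB-231 cells as well. Of the 7 other genes of the table that start within 2 Mb of CDKN2A in GRCh37, 5 were listed at 0 in all 6 MDA-MB-231 samples: KLHL9, MIR31HG, MTAP, CDKN2B and ELAVL2. These 5 passed the authors' filter on mean and SD of FPKM through MDA-MB-468 cells alone. Neighbours silent in both lines cannot be in the table, so 5 of 7 is not a share of all neighbouring genes. MTAP, the methylthioadenosine phosphorylase often deleted together with CDKN2A, was at 20.9 to 24.4 FPKM in the 6 MDA-MB-468 samples. FOCAD, 1337 kb away on the side of MTAP, was at 5.56 to 8.16 FPKM in MDA-MB-468 and 1.15 to 2.24 FPKM in MDA-MB-231 samples (control log2 FC 1.65, SE 0.14, adjusted p = 1.36e-05). MLLT3, 1373 kb away and next to FOCAD, was present in both lines, at 3.09 to 5.55 FPKM in MDA-MB-468 and 5.58 to 7.64 FPKM in MDA-MB-231 samples. The 11529 genes of the table are those that passed the authors' filter, not the whole transcriptome. Of these, 103 (0.893%) were at 0 in all 6 MDA-MB-231 samples. Ordered by their mean FPKM in control MDA-MB-468 cells, CDKN2A ranked 8, MTAP 25 and CDKN2B 38 among them. None of 77 ribosomal protein genes, which every cell uses, was at 0 in any sample, and their lowest value was 22.3 FPKM.

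Around RB1, no such run of silent genes was seen among the genes of the table. Genes silent in both lines cannot be in it, and the nearest listed gene after RB1, FNDC3A, starts 672 kb from the RB1 start. The stretch just after RB1 is therefore not covered. All 17 genes of the table that start within 2 Mb of RB1 were above 0 in some samples of both lines, and 16 of them, all but the short pseudogene COX7CP1, in every sample. ITM2B, 71.1 kb before RB1, was at 46.9 to 60.5 FPKM in MDA-MB-468 and 71.3 to 96.7 FPKM in MDA-MB-231 samples (control log2 FC -0.57, SE 0.12, adjusted p = 0.00242). Its call ended without control MDA-MB-231 replicate 3 (log2 FC -0.48). MED4, a Mediator subunit 209 kb before RB1, was at 10.2 to 12.9 FPKM and 21.7 to 27.9 FPKM (log2 FC -0.99, SE 0.09, adjusted p = 2.09e-05). Of the 17 genes, 2 were called higher and 9 lower in control MDA-MB-468 cells, a share near the 64.1% of all genes called, with a median log2 FC of -0.50 beside 0.01 over all genes. LPAR6, which lies within RB1 on the other strand, was not in the table under this symbol, so its level is unknown.

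The cyclins and kinases were expressed in both lines, most of them higher in MDA-MB-231 cells. CCND1, which encodes cyclin D1, was at 121, 134 and 138 FPKM in control MDA-MB-468 and 196, 184 and 186 FPKM in control MDA-MB-231 cells (log2 FC -0.52, SE 0.08, adjusted p = 0.000329). Its call rested on the fold limit and ended with scaling to the 75th percentile (log2 FC -0.498), without control MDA-MB-231 replicate 1 (-0.495) and without control MDA-MB-468 replicate 1 (-0.466). CCND3, which encodes cyclin D3, was at 45.9, 52.7 and 55.0 FPKM against 99.4, 108 and 113 FPKM (log2 FC -1.05, SE 0.09, adjusted p = 1.48e-05). CCND1 made up 71.6% to 72.5% of the summed FPKM of both D cyclins in control MDA-MB-468 and 62.2% to 66.3% in control MDA-MB-231 cells. CCND2, the other D cyclin gene, was not in the table under this symbol, so its level is unknown and these shares leave it out.

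CDK4, a kinase that pairs with the D cyclins, was at 66.92, 85.97 and 71.86 FPKM in control MDA-MB-468 and 152, 157 and 161 FPKM in control MDA-MB-231 cells (log2 FC -1.06, SE 0.10, adjusted p = 2.35e-05). CDK6, its close relative, was at 2.52, 2.75 and 3.05 FPKM against 15.7, 12.8 and 13.6 FPKM (log2 FC -1.99, SE 0.10, adjusted p = 4.50e-07). CDK4 therefore exceeded CDK6 in every sample, and CDK6 gave 3.10% to 4.07% of their summed FPKM in control MDA-MB-468 and 7.53% to 9.40% in control MDA-MB-231 cells. CCNE1, which encodes cyclin E1, went the other way, at 24.5, 32.6 and 36.2 FPKM in control MDA-MB-468 and 17.0, 15.8 and 15.7 FPKM in control MDA-MB-231 cells (log2 FC 0.88, SE 0.14, adjusted p = 0.000418).

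All 10 genes were called between the control lines, 4 higher in MDA-MB-468 (CDKN2A, CDKN2B, RBL2 and CCNE1) and 6 lower (RB1, RBL1, CCND1, CCND3, CDK4 and CDK6). A call needed an adjusted p under 0.05 by limma, over all genes, and an absolute log2 FC over 0.5. This has to be read against 64.1% of all genes called in the same comparison, 32.7% higher and 31.4% lower in MDA-MB-468. The table holds only genes with a mean and an SD of FPKM of at least 1. A gene that passed through a single line, as RB1, CDKN2A and CDKN2B did, therefore had to differ between the lines. In KO samples, which share no sample with the controls, all 10 were again called in the same directions, beside 62.8% of all genes. RB1, CDKN2A and CDKN2B had to differ there as well, and the KO cells are of the same 2 lines. This repeat is therefore not independent support. Each kind of cell is a single cell line, so that a difference between the lines cannot be told apart from any other difference of these 2 lines, and in bulk RNA fewer cells of a kind and less RNA per cell cannot be told apart.

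Since FPKM is per length, levels can also be ordered across genes. In control MDA-MB-468 cells the order of mean FPKM was CCND1, CDKN2A, CDK4, CCND3, CCNE1, RBL2, CDKN2B, RBL1, CDK6 and RB1. The ranges of CDKN2A and CDK4, of CCNE1 and RBL2, and of RBL1 and CDK6 overlapped, while the other neighbours in this order did not. In control MDA-MB-231 cells the order was CCND1, CDK4, CCND3, RB1, CCNE1, CDK6, RBL2 and RBL1, ahead of both INK4 genes at 0. There CCNE1 and CDK6, and RBL2 and RBL1, overlapped. CCND1 had the highest mean level in all 4 groups, but in KO MDA-MB-468 cells its range, 96.0 to 138 FPKM, overlapped that of CDKN2A, 106 to 123 FPKM.

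The question of the knockout comparison was whether loss of SMARCA4 changed these genes within a line. The KO comparisons share their control samples with the comparison of the lines. In MDA-MB-468 cells 0 of the 10 genes were called by limma, beside 2.14% of all genes, and 2 had an unadjusted p under 0.05, beside 25.1% of all genes. The count over all genes, 247, was 0 without control replicate 2 or KO replicate 2. Both genes with a low p were INK4 genes and both were higher in KO cells. CDKN2A had a log2 FC of 0.43 (SE 0.10, 95% interval 0.18 to 0.67, adjusted p = 0.0717), which is 1.35 times in mean FPKM. CDKN2B had a log2 FC of 0.68 (SE 0.15, 95% interval 0.30 to 1.06, adjusted p = 0.0693), which is 1.67 times in mean FPKM. CDKN2B gave 11.6% to 14.5% of the summed FPKM of both genes in control and 13.2% to 16.9% in KO cells. CDKN2B was called when only genes with a mean log2 value over 2 were tested (adjusted p = 0.0307) and when all 12 samples were fitted together (adjusted p = 0.00372). The latter fit takes part of its spread from the MDA-MB-231 samples, all of them at 0 for this gene.

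All 3 KO samples lay above all 3 controls for CDKN2A, CDKN2B and CCNE1, and below for 0 of the 10 genes, beside 31% of all genes whose groups did not overlap in either direction. CCNE1 was at 36.8, 40.7 and 38.3 FPKM in KO MDA-MB-468 cells, just above the highest control at 36.2 FPKM (log2 FC 0.32, SE 0.15, adjusted p = 0.240). The remaining genes overlapped. RB1 had a log2 FC of 0.16 (95% interval -0.16 to 0.47). RBL2 was at 29.5, 24.7 and 24.0 FPKM in KO cells (log2 FC -0.14) and CCND3 at 45.7, 46.1 and 47.3 FPKM (log2 FC -0.14), inside the range of the controls or below its lower end. CDK4 was at 91.6, 71.5 and 79.6 FPKM (log2 FC 0.11). CDK6, at 2.87, 3.66 and 4.12 FPKM in KO cells, had a log2 FC of 0.26 (95% interval -0.03 to 0.55). RBL1, at 2.53, 2.68 and 3.18 FPKM, had a log2 FC of 0.00 (95% interval -0.19 to 0.19) and CCND1 one of -0.18 (95% interval -0.52 to 0.17), at 96.0, 117 and 138 FPKM in KO cells. The median log2 FC over the 10 genes was 0.13, beside 0.02 over all genes.

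In MDA-MB-231 cells 0 of the 10 genes were called by limma, beside 3.7% of all genes, while 5 had an unadjusted p under 0.05, beside 31.2% of all genes. Their KO samples were all on one side of the controls, 2 genes above and 3 below, beside 36% of all genes whose groups did not overlap. CCNE1, at 21.0, 19.2 and 19.7 FPKM in KO against 17.0, 15.8 and 15.7 FPKM in control cells, had a log2 FC of 0.28 (SE 0.06, adjusted p = 0.0360), past the limit on p but below the fold limit. RBL2 was the other gene above its controls, at 10.6, 10.8 and 9.68 FPKM in KO cells (log2 FC 0.25, SE 0.08, adjusted p = 0.0899). CDK4 lay below its controls, at 127, 123 and 140 FPKM in KO cells (log2 FC -0.27, SE 0.06, adjusted p = 0.05005). CCND3, at 91.2, 94.5 and 86.3 FPKM in KO cells, had a log2 FC of -0.23 (adjusted p = 0.0774), and RB1 one of -0.18 (adjusted p = 0.0746). The values of these 5 genes thus differed from the controls by 0.18 to 0.28 on the log2 scale in either direction. The other 3 expressed genes overlapped between the groups: RBL1 at 8.0, 7.08 and 7.37 FPKM in KO cells (log2 FC -0.14), CCND1 at 160, 162 and 188 FPKM (log2 FC -0.15) and CDK6 at 14.3, 13.3 and 15.5 FPKM (log2 FC 0.03). The median over the 10 genes was -0.07, with both INK4 genes entering at 0, beside -0.01 over all genes.

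**Figure D2:**
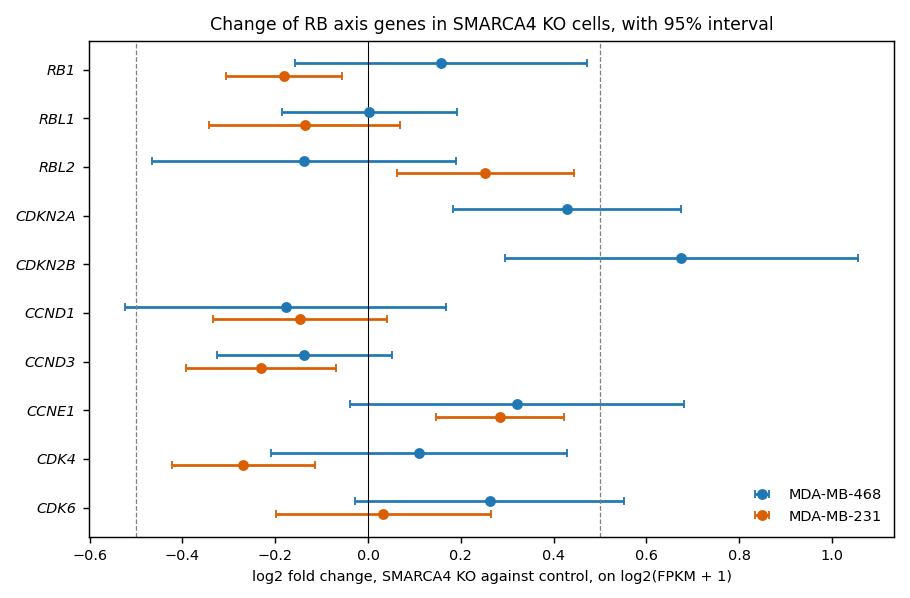
Log2 FC of SMARCA4 KO against control (horizontal axis, on log2(FPKM + 1)) of the 10 genes in MDA-MB-468 (blue) and MDA-MB-231 cells (orange), with bars for the 95% interval of the limma fit and dashed lines at the fold limit of 0.5. Only CDKN2B in MDA-MB-468 has its point beyond the limit, and CDKN2A and CDKN2B have no point in MDA-MB-231, where both are at 0.

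The difference of the KO change between the lines was tested as the interaction of line and genotype over all 12 samples. By this test 1 of the 10 genes passed both limits, CDKN2B, with a difference of 0.68 on the log2 scale (SE 0.16, adjusted p = 0.0204), beside 8.71% of all genes. CDKN2A had a difference of 0.43 (SE 0.11, adjusted p = 0.0297), below the fold limit. For both genes the difference equals the change in MDA-MB-468 cells, because MDA-MB-231 cells were at 0 with no spread, and these samples also lower the pooled spread of the test. It therefore restates that change, which was not called within MDA-MB-468 cells, and compares no 2 changes. The difference was 0.38 for CDK4 (95% interval 0.05 to 0.70, adjusted p = 0.108), 0.34 for RB1 (0.03 to 0.65, adjusted p = 0.131) and -0.39 for RBL2 (-0.74 to -0.04, adjusted p = 0.117). None of these passed. CCNE1 moved by 0.32 and 0.28 in the lines, with a difference of 0.04 (95% interval -0.32 to 0.39).

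Other genes of the pathway were described in lists, whose counts of calls between the lines stand beside 64.1% of all genes called, 32.7% higher and 31.4% lower. Of 5 other CDK inhibitor genes in the table, CDKN1A alone was called in KO MDA-MB-468 cells, beside 2.14% of all genes. CDKN1A encodes p21, a p53 target that inhibits cyclin E-CDK2, and stood at 15.4, 13.2 and 13.3 FPKM in control and 25.5, 25.7 and 26.3 FPKM in KO MDA-MB-468 cells, with every KO sample above every control. Its log2 FC was 0.85 (SE 0.07, adjusted p = 0.0145). The call was lost without control replicate 2 (adjusted p = 0.0814), control replicate 3 (adjusted p = 0.0565), KO replicate 2 (adjusted p = 0.0748) or KO replicate 3 (adjusted p = 0.0612). In MDA-MB-231 cells CDKN1A was higher at baseline, at 88.7, 69.1 and 73.6 FPKM in control and 86.6, 79.4 and 76.0 FPKM in KO cells (log2 FC 0.07, adjusted p = 0.703). The difference of the 2 changes was called (0.78, SE 0.13, adjusted p = 0.00420). Between the control lines CDKN1A (log2 FC -2.38) and CDKN1C, which encodes p57 (log2 FC -1.69), were called lower in MDA-MB-468 cells. CDKN1B, which encodes p27, had log2 FC of -0.10 and -0.03 in the KO comparisons and -0.25 between the lines, none called.

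Of 10 E2F and DP genes, which encode the factors held by the pocket proteins, 4 were called higher and 2 lower in control MDA-MB-468 cells, close to the share of all genes. E2F2, an activator, was at 17.6, 22.5 and 24.1 FPKM against 2.99, 2.88 and 3.58 FPKM (log2 FC 2.43, SE 0.13, adjusted p = 6.54e-07), and E2F7, a repressor, at 3.74, 5.25 and 5.17 FPKM against 29.1, 31.0 and 28.1 FPKM (log2 FC -2.42, SE 0.12, adjusted p = 4.36e-07). E2F5, the partner of p130, was lower (log2 FC -1.26) and TFDP2, a dimerization partner, higher (log2 FC 0.92). E2F1 was not called, with a log2 FC of -0.20 (adjusted p = 0.166). In KO MDA-MB-231 cells 1 of the 10 was called higher and 1 lower by limma, beside 3.7% of all genes called. An unadjusted p under 0.05 was found for 4, beside 31.2% of all genes. E2F2 rose to 4.93, 5.07 and 5.65 FPKM (log2 FC 0.59, SE 0.08, adjusted p = 0.0182) and E2F7 fell to 19.0, 21.0 and 20.1 FPKM (log2 FC -0.53, SE 0.06, adjusted p = 0.0115). E2F7 was below the fold limit with scaling to the 75th percentile (log2 FC -0.492), without control replicate 2 (-0.491) and without KO replicate 1 (-0.491), and missed the limit on p without KO replicate 2 (adjusted p = 0.0510). E2F2 kept its call without control replicate 3 only, with adjusted p of 0.0508 to 0.0771 without any other sample, and was below the fold limit with quantile normalization (log2 FC 0.495). In KO MDA-MB-468 cells 0 of the 10 were called by limma, beside 2.14% of all genes, and 2 had an unadjusted p under 0.05, beside 25.1%. The change of E2F2 differed between the lines (-0.66, SE 0.15, adjusted p = 0.0179).

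Of 43 E2F target genes of replication and mitosis, 8 were called higher and 15 lower in control MDA-MB-468 cells, a lower share than that of all genes, with a median log2 FC of -0.20 beside 0.01 over all genes. Among those with the largest change were MYBL2 and DNMT1, with a log2 FC of 1.46 and 1.29, and UHRF1 and POLE2, with -1.36 and -1.31. In KO MDA-MB-468 cells 0 of 43 were called by limma, beside 2.14% of all genes, and 5 had an unadjusted p under 0.05, beside 25.1%. Their median was 0.02, beside 0.02 over all genes. In KO MDA-MB-231 cells 2 were called, both higher, E2F2 and MYBL2, beside 3.7% of all genes. There 18 of the 43 had an unadjusted p under 0.05, beside 31.2% of all genes. MYBL2, a transcription factor of late G1 and S phase, was at 36.8, 37.5 and 42.0 FPKM in control and 57.7, 58.2 and 59.8 FPKM in KO MDA-MB-231 cells (log2 FC 0.59, SE 0.06, adjusted p = 0.00999). Its call was lost without KO replicate 2 (adjusted p = 0.0576). CCNE2, which encodes cyclin E2, was at 21.1, 19.0 and 19.6 FPKM in control and 16.0, 13.9 and 14.3 FPKM in KO MDA-MB-231 cells, below the fold limit (log2 FC -0.41, adjusted p = 0.0266), and so lay on the other side of its controls than CCNE1. The median of the 43 targets there was -0.06, beside -0.01 over all genes.

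Of 10 genes listed for the DREAM and MuvB complexes, which control cell cycle genes, 5 were called higher and 3 lower in control MDA-MB-468 cells. This stands beside the 64.1% of all genes, and MYBL1 had the largest change (log2 FC -2.64, SE 0.08). Of 14 genes of proteins that bind RB, such as histone deacetylases, 5 were called higher and 2 lower, a lower share than that of all genes. Of 17 other cyclins, kinases and regulators of G1 and S phase, 3 were called higher and 8 lower, close to the share of all genes, CDK2, the kinase of cyclin E, among the latter (log2 FC -0.84). In the KO comparisons MYBL2 in MDA-MB-231 cells was the sole call by limma in these 3 lists. An unadjusted p under 0.05 was found in KO MDA-MB-468 cells for 2, 1 and 3 genes of the lists in this order, and in KO MDA-MB-231 cells for 2, 2 and 5, beside 25.1% and 31.2% of all genes. Near CDKN2A, MLLT3 fell from 5.55, 4.90 and 5.51 FPKM in control to 3.09, 3.17 and 3.26 FPKM in KO MDA-MB-468 cells (log2 FC -0.60, SE 0.06, adjusted p = 0.0147), opposite to CDKN2A and CDKN2B. This call was lost in 5 of 6 fits that left out a sample, all but that without KO replicate 1, with adjusted p of 0.0528 to 0.0974.

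**Figure D3:**
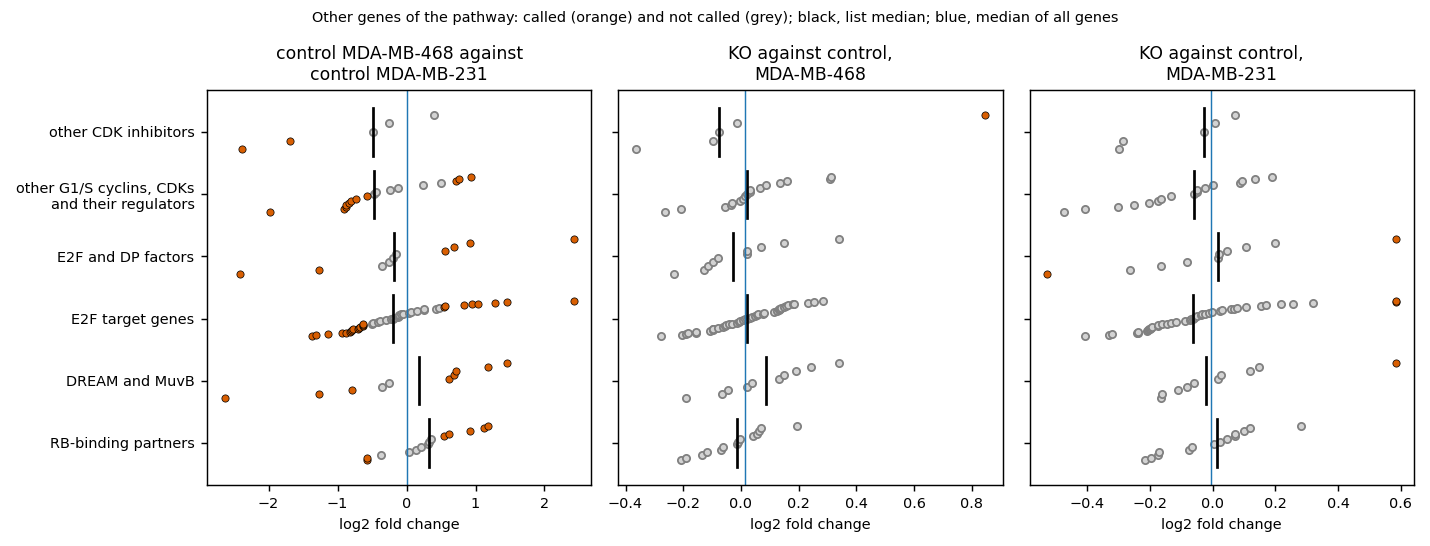
Log2 FC (horizontal axis, a separate scale for each comparison) of the genes of 6 pathway lists between the control lines and in KO cells of each line. Orange points are called and grey points are not, black bars are list medians and the blue line is the median of all genes. Calls are spread to both sides between the lines, and CDKN1A, E2F2, E2F7 and MYBL2 are the called genes in the KO panels.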

How the data were processed

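RNA of 2 cell lines, each as 3 control and 3 SMARCA4 KO samples, was sequenced from a stranded mRNA kit. Per the study's methods, reads were trimmed (Trimmomatic) and mapped to hg19 (STAR), and FPKM came from RSEM. The authors kept genes whose mean and SD of FPKM both reached 1. The values they deposited are log2(FPKM + 1), for 11529 genes. Read depth is unknown. The deposited log2 values were fitted with limma 3.58.1 in R 4.3.3 (lmFit, eBayes without trend), KO against control within each line, line against line among controls, and the interaction over 12 samples. A call needed a Benjamini-Hochberg adjusted p under 0.05 over all genes and an absolute log2 FC over 0.5, the limits of the study. The fit was tested on simulated data.

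Members and gene lists were chosen with earlier results of these data known. All 10 members, SMARCA4 and a fixed set of pathway genes were named, and of each list at most 4 called genes with the largest change per comparison. Nothing says that replicates were separate cultures, so p-values measure the spread between these samples, which may be technical. In MDA-MB-468 cells same-numbered samples deviated together (correlations of 0.28, 0.19 and 0.15 over 10187 genes), and the titles' replicate number was used as a block in an alternative fit. Gene positions are from GENCODE release 44 on GRCh37, promoters from RefSeq on GRCh38.p14. Python 3.11.15, pandas 2.3.3 and matplotlib 3.10.9 were used. Alternatives were a pseudocount of 0.1, a filter on a mean log2 value over 2, an intensity trend, 2 scalings, a fold limit of 1, blocks, 1 fit of 12 samples, KO samples for the lines, and leaving out each sample.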

Additional observations from a re-analysis of the deposited data

Results flagged for a closer look

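The interaction test of limma, with Benjamini-Hochberg adjustment, compared the log2 FC in KO MDA-MB-468 with that in KO MDA-MB-231 cells. The values below are the former minus the latter, for 6 genes with an adjusted p under 0.05. Genes of the pathway lists and neighbours below the fold limit were left out. Marker genes were left out as well, among them CAV1, VIM, CDH1 and CD14, which were called in this test. The number 6 is therefore not the count of all such genes. The value was 0.68 for CDKN2B (adjusted p = 0.0204) and 0.43, below the fold limit, for CDKN2A (adjusted p = 0.0297). All MDA-MB-231 samples were at 0 for both, so these values only restate the change in MDA-MB-468 cells, which was not called there (adjusted p = 0.0693 and 0.0717), and do not show that 2 changes differed. For CDKN2A the adjusted p was 0.0719 in the fit with replicate blocks within each line. The difference was 0.78 for CDKN1A (adjusted p = 0.00420). It was 0.41 for SMARCA4 itself (adjusted p = 0.0270), below the fold limit. It was -0.66 for E2F2 (adjusted p = 0.0179), which was called in MDA-MB-231 and not in MDA-MB-468 cells, and -0.70 for MLLT3 (adjusted p = 0.00396), which was called in MDA-MB-468 and not in MDA-MB-231 cells. The cause of these differences was not tested.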

How the results depend on the processing

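Among the 10 genes, the count called in KO MDA-MB-468 cells was 0 and became 1 (CDKN2B) with the filter on a mean log2 value over 2 and with 1 fit of all 12 samples. The count for the difference between the lines was 1 and became 0 with a fold limit of 1. The counts for KO MDA-MB-231 cells and for the lines stayed within 1.5 times under every alternative run. Small changes turned sign: RBL1 in KO MDA-MB-468 cells from 0.00 to -0.0052 with scaling to the 75th percentile and -0.0367 with quantile normalization, and between -0.0685 and 0.0534 when a sample was left out; the CCNE1 difference between the lines from 0.04 to -0.0095 with that scaling, and between -0.12 and 0.15 when a sample was left out; the CCND1 difference from -0.03 to between -0.16 and 0.10, and CDK6 in KO MDA-MB-231 cells from 0.03 to between -0.0281 and 0.113, when a sample was left out. None of these was called. The cause was not tested.

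Over all genes, 247 were called in KO MDA-MB-468 cells, 400 with the filter, 537 with 1 fit of all samples, 53 with a fold limit of 1, and 0 to 474 when a sample was left out. It was 0 without control replicate 2 or KO replicate 2, 5 without KO replicate 3, 12 without control replicate 3, 27 without control replicate 1 and 474 without KO replicate 1. In KO MDA-MB-231 cells the count was 426, 85 with a fold limit of 1 and 99 to 311 when a sample was left out. With a fold limit of 1 it was 4150 in place of 7395 between the lines and 217 in place of 1004 for their difference. With scaling to the 75th percentile the difference had 394 higher and 610 lower calls in place of 495 and 509.

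The replicate number as a block gave 241 calls in KO MDA-MB-468 cells, where same-numbered samples deviated together, and 151 of these were among the 247. It changed no call there of the 10 genes or of CDKN1A, MLLT3 and SMARCA4. In MDA-MB-231 cells same-numbered control and KO samples also share a number after the letter p in the sample descriptions. They did not deviate together (correlations of -0.07, 0.08 and -0.16), and whether they were paired is not stated. Between the lines (-0.09, -0.03 and 0.01) samples shared the replicate number only. The replicate block left 0 calls in KO MDA-MB-231 cells (adjusted p = 0.0520 for SMARCA4, 0.0707 for E2F2, E2F7 and MYBL2) and 7405 between the lines. In MDA-MB-468 cells the number after p differs between control and KO samples of the same replicate number. Used as a block there, it left 0 calls, with an adjusted p of 0.140 for SMARCA4. Depth is unknown, so the counting error of low values such as RB1 in MDA-MB-468 cells cannot be given.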

Other observations

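Genes most like RB1 and CDKN2A over the 12 samples were found by the root mean square difference of log2 values, each gene centred on its own mean. For RB1 they were ARMCX1 (0.125), MECOM (0.129) and SDPR (0.133), which lay between 0 and 0.06 FPKM in MDA-MB-468 and between 10.9 and 14.4 FPKM in MDA-MB-231 samples. For CDKN2A they were MIR205HG (0.0681), C5orf38 (0.105) and MAGEA12 (0.127), which lay between 79.0 and 138 FPKM in MDA-MB-468 and at no more than 0.09 FPKM in MDA-MB-231 samples. The likeness rests almost wholly on the presence of a gene in a single line.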
